A study of Homo sapiens with 36 samples.

Results

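The genes described here are TNFSF10, which encodes the death ligand TRAIL, and 6 receptor genes of the tumor necrosis factor (TNF) receptor family, namely TNFRSF10A, TNFRSF10B, TNFRSF10D, FAS, TNFRSF1A and TNFRSF12A. They were chosen by symbol, and the 7 symbols matched 7 of the 60675 genes in the count table. RNA sequencing had been performed on SW1783, a human astrocytoma cell line, and on HT29, a human colorectal adenocarcinoma cell line, with 36 libraries in 12 groups of 3 replicates. In each cell line, batch A consisted of vehicle and of wortmannin at 10 µM, which blocks PI3K, a lipid kinase, and served as the positive control. Batch B consisted of its own vehicle and of a decoction in hot water of the plant *Aconitum carmichaeli* Debeaux (abbreviated ACD, and the plant's processed root is named Aconiti Lateralis Radix Preparata) at 500 µg/mL (high), 100 µg/mL (medium) and 20 µg/mL (low). Every group was exposed for 24 h, and the vehicle was 0.1% DMSO per the labels. The study's methods give a higher percentage for the vehicle solution itself, and extracts in such a solution were added to the medium of each well. SW1783 was cultured in L-15 medium without CO2 and HT29 in DMEM with CO2, so that cell line, medium and gas cannot be told apart. Each line is a single tumor-derived line, and the study's methods state that the high dose showed no cytotoxicity. The question of the study was whether ACD acts more on cells of brain than of intestinal origin, and the comparisons here ask how this gene family took part in the response of each line.

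Receptors with a death domain pass a signal from a ligand outside the cell to FADD and caspase-8 inside it, and this can start apoptosis. TRAIL binds the death receptors DR4 (TNFRSF10A) and DR5 (TNFRSF10B) and also the decoy receptor DcR2 (TNFRSF10D), whose death domain is truncated and does not pass on the death signal. FAS binds FAS ligand, TNFRSF1A is the main receptor for TNF and signals mostly through NF-kB, and TNFRSF12A (Fn14) is the receptor for TWEAK and has no death domain. In many cell types the gene of DR5 is induced under endoplasmic reticulum stress by the factor CHOP, the product of DDIT3, and under DNA damage by p53, while TRAIL is itself an interferon-inducible gene.

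The promoter of TNFSF10 is shown because this gene moved in opposite directions under ACD and wortmannin in HT29. The sequence is that of RefSeq on GRCh38.p14, minus strand, chr3:172523431-172523680, the 250 bases that end at the base before the transcription start of RefSeq. GENCODE, which gives the gene positions below, starts the gene farther upstream, so that the end of the window with the TATA box lies inside the GENCODE gene. Capitals mark the matches of 2 motifs among 13 searched on both strands.
TNFSF10 promoter: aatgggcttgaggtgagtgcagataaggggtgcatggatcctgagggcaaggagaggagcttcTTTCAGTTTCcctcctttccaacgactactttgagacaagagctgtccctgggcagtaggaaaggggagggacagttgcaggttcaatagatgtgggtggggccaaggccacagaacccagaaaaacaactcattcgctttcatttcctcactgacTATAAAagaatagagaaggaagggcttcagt
The first match, on the reverse strand, reads GAAA, any 2 bases and GAAA again, the core of the element that interferon regulatory factors bind, and lies 187 to 178 bases before the start. It occurred in 3.02% of 35116 promoter windows of that length. The second is the TATA box TATAAA at 31 to 26 bases before the start, which 10.7% of the windows hold. The other 11 motifs had no match in this window. They were the STAT elements TTC and GAA with 3 or with 4 bases between them, the AP-1 site TGACTCA, the C/EBP-ATF elements TGATGNAA and ATTGCATCA, the C/EBP core TGCAAT, the NF-kB core GGGNNTTCC, the forkhead core TGTTTAC, the CCAAT box, the GC box GGGCGG and the E-box CACGTG, which 0.216 to 42.6% of the windows hold. TGCAAT lies within the reverse strand of ATTGCATCA. RefSeq promoters were at hand for 3 of the 7 genes, and a match is a string of letters, not a site of binding.

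Libraries of SW1783 held 18863852 to 26436841 counts and those of HT29 15941250 to 33866636. Most of the marker genes chosen fitted the labels of the cell lines, in CPM, which scales the counts of each library to the same total. Vimentin (VIM) was at 4076 to 4975 in SW1783 and at most 0.133 in HT29, and EPCAM at 452 to 585 in HT29 and at most 0.202 in SW1783. S100A6, chosen as a marker of SW1783, went the other way, at 676 to 1006 in SW1783 and 930.5 to 1918 in HT29. Of 5 astrocyte markers, SLC1A3 was at 5.58 to 50.1 CPM in SW1783, while GFAP, AQP4, S100B and ALDH1L1 were at or near 0, so the line carried the name astrocytoma without most markers of astrocytes. The summed CPM of these 5 genes in SW1783 was 33.4 to 35.3 with vehicle of batch B, 26.9 to 31.2 at low, 15.9 to 17.4 at medium and 5.58 to 6.17 at high. Replicate 2 of the high dose in HT29 stood apart, with the largest difference between replicates of any group. The chi-square per degree of freedom was up to 65.1 there, against 2.33 to 20.0 within the other groups of HT29 and 1.65 to 3.55 within those of SW1783. Changes of the 7 genes and counts of called genes in that high group are therefore given with and without this replicate. In the vehicles of HT29, replicate 1 also differed from the other replicates, at 13.5 to 15.8. The share of counts from the 2 mitochondrial ribosomal RNA genes was 0.913 to 0.960% with vehicle of batch B, 3.01 to 3.33% at low, 7.67 to 8.05% at medium and 5.76 to 6.06% at high in SW1783, so that medium was above high. In HT29 it was 1.14 to 1.22%, 0.982 to 1.14%, 1.96 to 2.18% and 11.3 to 12.5% in the same order. Its part in the results was not tested. The vehicles of batch A and B with the same replicate number were closer to each other (1.44 to 1.61) than those with other numbers (1.96 to 16.1), but differed by more than sampling noise. No source states that replicates came from separate cultures, so p-values measure the spread between these samples, which may be technical.

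Without treatment, SW1783 carried more RNA of each of the 6 receptors described here except DR4, and HT29 carried more DR4 and more TRAIL. Levels between genes are compared as normalized counts per kb of the canonical transcript. In SW1783 with vehicle of batch B, TNFRSF12A had the highest level at 5597 ± 317 per kb (SD, n = 3), followed by TNFRSF1A at 2181 ± 60.7, TNFRSF10B at 342 ± 7.90, TNFRSF10D at 312 ± 4.95 and FAS at 133.5 ± 8.76. TNFRSF10A and TNFSF10 were lowest, at 15.8 ± 0.408 and 14.9 ± 0.921 per kb. In HT29 the order began in the same way, with TNFRSF12A at 2268 ± 83.2, TNFRSF1A at 644.5 ± 10.5 and TNFRSF10B at 210.0 ± 9.26 per kb. The next levels in HT29 were 97.7 ± 12.1 for TNFRSF10A and 91.8 ± 3.74 for TNFSF10, above 52.2 ± 4.45 for TNFRSF10D and 39.3 ± 3.66 for FAS.

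All 7 genes were called between the vehicles of the lines in both batches, where 50.2% of 24197 genes tested were called in batch B and 51.6% of 23724 in batch A. A call here and below is an adjusted p under 0.05 with a change of more than 1.5-fold by the Wald test of DESeq2, adjusted over all genes tested. The decoy TNFRSF10D differed most among the genes higher in SW1783, with a log2 fold change of 2.57 ± 0.10 (SE, adjusted p = 6.19e-149) in batch B and 2.60 ± 0.10 in batch A. FAS was higher in SW1783 by 1.75 ± 0.13, TNFRSF1A by 1.76 ± 0.05, TNFRSF12A by 1.3 ± 0.06 and TNFRSF10B by 0.70 ± 0.07 on the log2 scale in batch B. TNFRSF10A and TNFSF10 were lower in SW1783, by -2.64 ± 0.20 and -2.62 ± 0.23 in batch B and by -2.32 ± 0.20 and -2.14 ± 0.24 in batch A. Between the vehicles of batch B and A none of the 7 genes was called in either line, none had an unadjusted p under 0.05, and edgeR called none. The vehicles were paired by replicate number across the batches, and with the number as a block none of the 7 was called and unadjusted p values lay from 0.487 to 0.837 for SW1783 and from 0.123 to 0.899 for HT29. Without the block the background of that comparison was 0.00348% of genes in SW1783 and 0% in HT29.

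**Figure D1:**
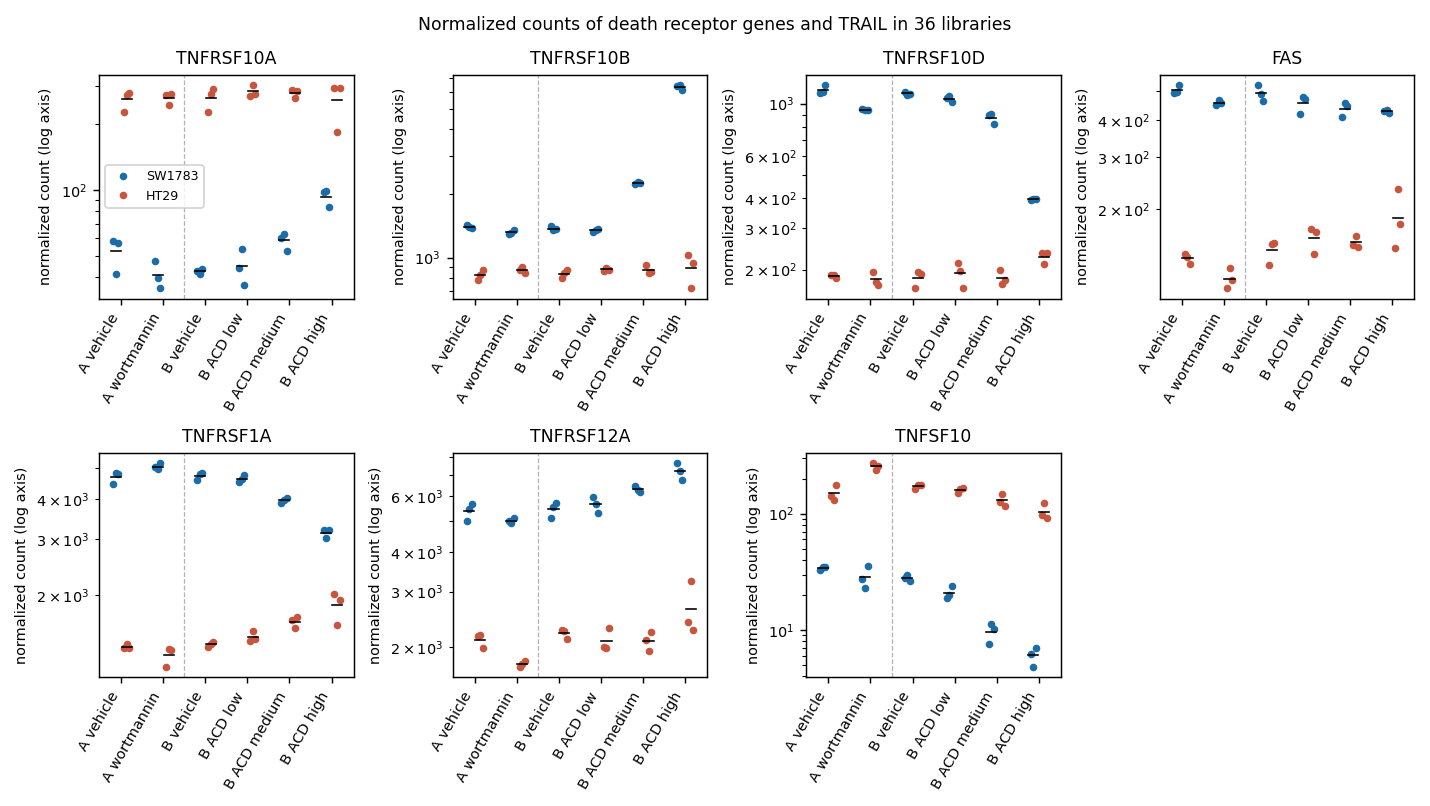
Normalized counts (log axis) of the 7 genes in the 36 libraries, by batch and treatment; points are libraries, black bars are group means of 3, blue is SW1783 and red is HT29. TNFRSF10B in SW1783 lay at 6155 to 6492 at the high dose of ACD against 1342 to 1403 with vehicle, while TNFSF10 in SW1783 stepped down with dose and in HT29 was highest under wortmannin (236 to 272).

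In SW1783 at the high dose of ACD, RNA of both TRAIL death receptors rose, while RNA of the decoy receptor and of TRAIL itself fell. TNFRSF10B rose 4.72-fold, TNFRSF10A rose 2.24-fold, TNFRSF10D was 2.75-fold lower and TNFSF10 was 4.58-fold lower. TNFRSF12A and TNFRSF1A passed the adjusted p in opposite directions with changes of less than 1.5-fold, and FAS did not pass. Thus 4 of the 7 genes were called, 2 higher and 2 lower, against 17.7% of 20050 genes tested (8.41% higher and 9.28% lower). The median log2 fold change of the 7 was -0.18, beside -0.01 for all genes tested.

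TNFRSF10B, the gene of DR5 (ENSG00000120889; chromosome 8, 23020133 to 23069031, minus strand), had the largest change among the receptor members at medium and high in SW1783. Its normalized counts in SW1783 were 1403, 1342 and 1358 with vehicle of batch B, 1316, 1355 and 1365 at low, 2227, 2268 and 2250 at medium, and 6373, 6492 and 6155 at high. The low dose overlapped the vehicle, every medium library was above both, and every high library was above every medium library. The log2 fold change was -0.02 ± 0.05 at low (adjusted p = 0.895), 0.72 ± 0.04 at medium (adjusted p = 2.14e-60) and 2.24 ± 0.04 at high, where DESeq2 returned an adjusted p of 0, below the smallest number it can hold. From medium to high the gene rose by a further 1.51 ± 0.04 on the log2 scale. Wortmannin gave 1289, 1305 and 1349 against 1417, 1390 and 1371 in its vehicle, a change of -0.09 ± 0.05 (adjusted p = 0.176). In the order of the 12 groups, the high and the medium groups of SW1783 were first and second without overlap, the other 4 groups of SW1783 followed with neighbours that overlapped, and the 6 groups of HT29 came last.

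In HT29, TNFRSF10B did not pass the test under any treatment. Its normalized counts were 799.7, 846 and 873 with vehicle and 1027, 717.5 and 948 at high, and the high group spanned the whole range of the vehicle because replicate 2 was lowest. The log2 fold change at high was 0.09 ± 0.11, with a 95% interval of -0.13 to 0.31. Without replicate 2 it was 0.21 (adjusted p = 0.0439), below the fold threshold. Medium gave 0.04 ± 0.11, low 0.05 ± 0.11 and wortmannin 0.05 ± 0.08. The difference in response between the lines was tested as an interaction, SW1783 minus HT29, and came to 2.10 ± 0.11 at high (adjusted p = 7.32e-86; 1.99 without replicate 2 of HT29) and 0.66 ± 0.11 at medium (adjusted p = 3.80e-08).

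TNFRSF10A, the gene of DR4 (ENSG00000104689; chromosome 8, 23190452 to 23225102, minus strand), rose at the high dose in SW1783 from a low level. Normalized counts were 42.7, 41.2 and 43.4 with vehicle, 44.1, 53.5 and 36.7 at low, 60.5, 63.2 and 52.5 at medium, and 97.5, 98.9 and 83.5 at high. The medium group lay above the vehicle and the high group above the medium. Log2 fold changes were 0.48 ± 0.25 at medium (adjusted p = 0.147) and 1.16 ± 0.24 at high (adjusted p = 5.98e-06). The step from medium to high was 0.69 ± 0.23 (adjusted p = 0.00953), a call that was lost without replicate 2 of the high group (adjusted p = 0.0635) or replicate 3 of the medium group (adjusted p = 0.0738). At low DESeq2 gave no adjusted p because of the small counts. In HT29 the gene stood at 183 to 293 at high and 227 to 289 with vehicle, with overlapping ranges and a log2 fold change of -0.04 ± 0.16, which turned to 0.13 without replicate 2. The interaction at high was 1.15 ± 0.26 (adjusted p = 5.52e-05), and 0.99 without that replicate. Even after the rise, SW1783 at high (mean 93.3 ± 8.52, SD, n = 3) remained below each HT29 group, whose means were 256.5 to 283 and whose neighbours in order overlapped.

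TNFRSF10D, the gene of the decoy DcR2 (ENSG00000173530; chromosome 8, 23135588 to 23164027, minus strand), fell with the dose in SW1783. Normalized counts were 1122, 1087 and 1103 with vehicle, 1056, 1073 and 1015 at low, 894, 901 and 823 at medium, and 394, 395.4 and 395.2 at high. Each dose lay below the one before it without overlap. The log2 fold change was -0.07 ± 0.06 at low (adjusted p = 0.655), -0.33 ± 0.06 at medium (adjusted p = 2.31e-06, under the fold threshold) and -1.46 ± 0.07 at high (adjusted p = 4.18e-91). Wortmannin also lowered it, from 1104, 1117 and 1202 to 952, 941 and 940.4, with a log2 fold change of -0.28 ± 0.06 (adjusted p = 2.69e-05, under the fold threshold). In HT29 at high the counts were 235, 210.2 and 235 against 167, 195 and 192 with vehicle, and the groups did not overlap. That change of 0.28 ± 0.13 did not pass (adjusted p = 0.197), nor did the 0.32 without replicate 2 (adjusted p = 0.122). The other 5 groups of HT29 had means of 182 to 193 and overlapped one another in order. The interaction at high was -1.78 ± 0.12 (adjusted p = 1.22e-49), and -1.82 without that replicate.

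The balance of DR5 to its decoy can be read within each library, as the ratio of TNFRSF10B to TNFRSF10D in counts per kb. In SW1783 the ratio was 1.11, 1.09 and 1.09 with vehicle of batch B, 1.10, 1.12 and 1.19 at low, 2.20, 2.23 and 2.42 at medium, and 14.3, 14.5 and 13.8 at high. In HT29 it was 4.25, 3.83 and 4.01 with vehicle and 3.87, 3.02 and 3.57 at high, and for this ratio the groups overlapped with and without replicate 2 of high. Untreated SW1783 thus had a lower ratio than untreated HT29, and SW1783 at the high dose had a higher ratio than any HT29 library. The exact two-sided permutation test against the vehicle gave p = 0.1 for medium and for high in SW1783, the smallest value that 3 against 3 libraries allow, and p = 0.2 for high in HT29. In SW1783 at these doses every library was above the vehicle for TNFRSF10B and below it for TNFRSF10D. The ratios could therefore not overlap, and that p adds nothing to the results of the single genes. The share of TNFRSF10B in the summed level per kb of the 3 TRAIL receptors went from 51.1 ± 0.236% (SD, n = 3) with vehicle to 67.7 ± 1.17% at medium and 91.6 ± 0.0586% at high in SW1783, and was 58.4 ± 1.69% and 58.5 ± 0.950% with vehicle and at high in HT29. Under wortmannin the ratio in SW1783 was 1.23 ± 0.0357 against 1.08 ± 0.0656 in its vehicle (exact two-sided permutation p = 0.1). With TNFRSF10A added to TNFRSF10B, the ratio to TNFRSF10D in HT29 was 5.90 ± 0.195 with vehicle and 4.96 ± 0.705 at high. For this sum the groups of HT29 did not overlap, with or without replicate 2 of high (exact two-sided permutation p = 0.1 with it). In SW1783 the same ratio was 1.15 ± 0.00872 with vehicle of batch B and 14.5 ± 0.415 at high.

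**Figure D2:**
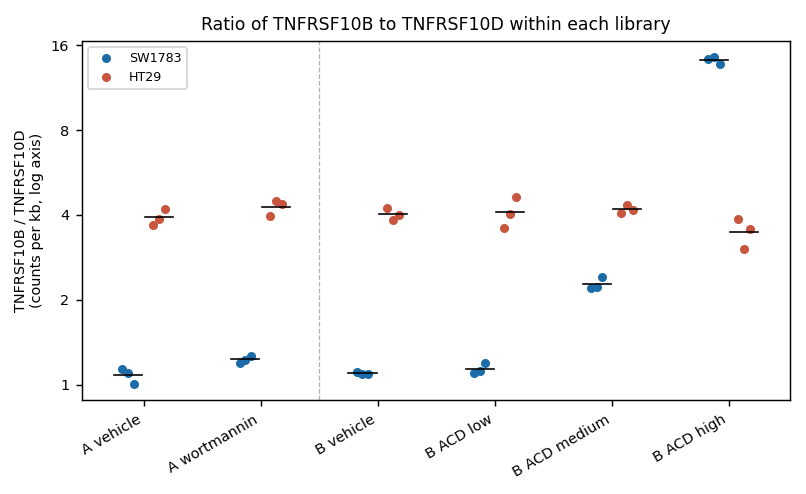
Ratio of TNFRSF10B (DR5) to TNFRSF10D (decoy DcR2) within each library, in normalized counts per kb on a log axis; points are libraries and bars are means of 3. SW1783 lay at 1.09 to 1.11 with vehicle of batch B and at 13.8 to 14.5 at the high dose of ACD, and the HT29 libraries lay between 3.02 and 4.62.

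TNFSF10, the gene of TRAIL (ENSG00000121858; chromosome 3, 172505508 to 172523475, minus strand), was the gene that was called in both lines. In SW1783 it was close to the limit of detection, with unnormalized counts of 25, 31 and 23 with vehicle, 18, 18 and 21 at low, 6, 11 and 10 at medium, and 5, 5 and 7 at high. As normalized counts the groups were at 28.0 ± 1.73, 21.0 ± 2.7, 9.68 ± 1.89 and 6.04 ± 1.11 (SD, n = 3), and neighbouring doses did not overlap. At high the log2 fold change was -2.19 ± 0.51 (adjusted p = 6.03e-05). At medium it was -1.52 ± 0.46, for which DESeq2 gave no adjusted p because the mean count fell below its independent filter. edgeR's quasi-likelihood test gave -1.50 with an adjusted p of 0.000109. At these counts the difference between high and medium, -0.68 ± 0.56 (adjusted p = 0.366), was not detectable.

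In HT29, TNFSF10 fell with ACD and rose with wortmannin. Normalized counts were 164, 177 and 176 with vehicle of batch B, 152, 164 and 167 at low, 126.5, 149 and 117 at medium, and 96.4, 123 and 91.8 at high. The medium and high groups lay below every vehicle library, and medium and high overlapped. The log2 fold change was -0.13 ± 0.14 at low, -0.41 ± 0.15 at medium (adjusted p = 0.164) and -0.78 ± 0.16 at high (adjusted p = 3.14e-05), and -0.90 at high without replicate 2. With wortmannin the counts were 272, 236 and 255 against 143, 132 and 176 in its vehicle, without overlap, a log2 fold change of 0.74 ± 0.16 (adjusted p = 8.25e-05). In SW1783 wortmannin gave 27.6, 23.1 and 35.5 against 32.5, 34.6 and 35.1, a change of -0.25 ± 0.34 (adjusted p = 0.633). The interaction was -1.0 ± 0.29 for wortmannin (adjusted p = 0.00676), and -1.03 with an adjusted p of 0.125 when the replicate number was a block. For ACD it was -1.46 ± 0.43 at high (adjusted p = 0.00356; -1.35 without replicate 2 of HT29) and -1.12 ± 0.37 at medium (adjusted p = 0.0278), the latter being lost on leaving out any of 5 single libraries (adjusted p of 0.0538 to 0.109). These 5 were replicate 2 of the medium group of HT29, replicate 2 of the vehicle and replicates 1, 2 and 3 of the medium group of SW1783.

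TNFRSF1A, the gene of TNF receptor 1 (ENSG00000067182; chromosome 12, 6328757 to 6342114, minus strand), moved in opposite directions in the lines. In SW1783 normalized counts were 4586, 4791 and 4832 with vehicle, 4547, 4633 and 4763 at low, 3893, 3981 and 4050 at medium, and 3197, 3025 and 3191 at high. Medium lay below vehicle and high below medium without overlap. Log2 fold changes were -0.25 ± 0.04 at medium (adjusted p = 7.87e-11) and -0.57 ± 0.04 at high (adjusted p = 5.64e-55), just under the fold threshold of 0.585, and without replicate 1 of the vehicle it was -0.59 and called. In HT29 the counts were 1374, 1405 and 1418 with vehicle, 1437, 1536 and 1458 at low, 1669, 1570 and 1698 at medium and 2011, 1611 and 1934 at high. Each dose was above the vehicle, and medium and high overlapped. The log2 fold change in HT29 was 0.22 ± 0.08 at medium (adjusted p = 0.197) and 0.39 ± 0.08 at high (adjusted p = 7.55e-05), or 0.47 without replicate 2. The interaction was called at high, at -1.01 ± 0.08 (adjusted p = 6.27e-34), or -1.09 without that replicate, and at medium it was -0.48 ± 0.08 (adjusted p = 1.12e-07), under the fold threshold. Wortmannin changed it by 0.10 ± 0.04 in SW1783 (adjusted p = 0.0183) and by -0.11 ± 0.08 in HT29 (adjusted p = 0.324).

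TNFRSF12A, the gene of Fn14 (ENSG00000006327; chromosome 16, 3018445 to 3022383, plus strand), rose with dose in SW1783 by less than the fold threshold. Normalized counts were 5125, 5551 and 5728 with vehicle, 5980, 5676 and 5308 at low, 6479, 6287 and 6198 at medium and 7642, 7201 and 6774 at high. Medium and high were above vehicle without overlap. These were log2 fold changes of 0.21 ± 0.05 at medium (adjusted p = 7.00e-05) and 0.42 ± 0.05 at high (adjusted p = 1.01e-17). In HT29 the high group was at 2406, 3240 and 2278 against 2274, 2250 and 2123, just above it without overlap, a change of 0.24 ± 0.13 (adjusted p = 0.322), and 0.06 without replicate 2, the library at 3240. The interaction at high was 0.15 ± 0.14 (adjusted p = 0.505), and 0.32 (adjusted p = 0.00369) without that replicate. Wortmannin lowered the gene slightly in both lines, by -0.11 ± 0.04 in SW1783 (adjusted p = 0.0173) and by -0.28 ± 0.07 in HT29 (adjusted p = 0.000681), under the fold threshold in both.

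FAS (ENSG00000026103; chromosome 10, 88953813 to 89029605, plus strand) had the smallest change of the 7 at high in SW1783. In that line its normalized counts were 526.5, 492 and 462 with vehicle and 429, 433 and 424 at high, which did not overlap, with a log2 fold change of -0.18 ± 0.09 (adjusted p = 0.102). In HT29 they were 129.8, 153 and 154 with vehicle and 149, 234 and 179 at high, with 0.33 ± 0.17 (adjusted p = 0.287), and 0.15 without replicate 2. The interaction of -0.53 ± 0.16 at high (adjusted p = 0.00612) was under the fold threshold, and was -0.38 (adjusted p = 0.0486) without replicate 2 of HT29. Medium, low and wortmannin gave changes of FAS between -0.25 and 0.11 in both lines, none with an adjusted p under 0.05.

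Ordered by mean over the 12 groups, TNFRSF10D, FAS, TNFRSF12A and TNFRSF1A had every group of SW1783 above every group of HT29, while TNFRSF10A and TNFSF10 had every group of HT29 above every group of SW1783. For TNFSF10 wortmannin in HT29 came first without overlap (254 ± 18.4, SD, n = 3), the 5 other groups of HT29 overlapped their neighbours, and the low, medium and high groups of SW1783 came last without overlap. TNFRSF1A was highest under wortmannin in SW1783 (5070 ± 117) and lowest under wortmannin in HT29 (1294 ± 91.3), without overlap with the next group in either case. FAS and TNFRSF12A were also lowest under wortmannin in HT29, at 117 ± 9.12 and 1776 ± 36.1, below every other library.

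**Figure D3:**
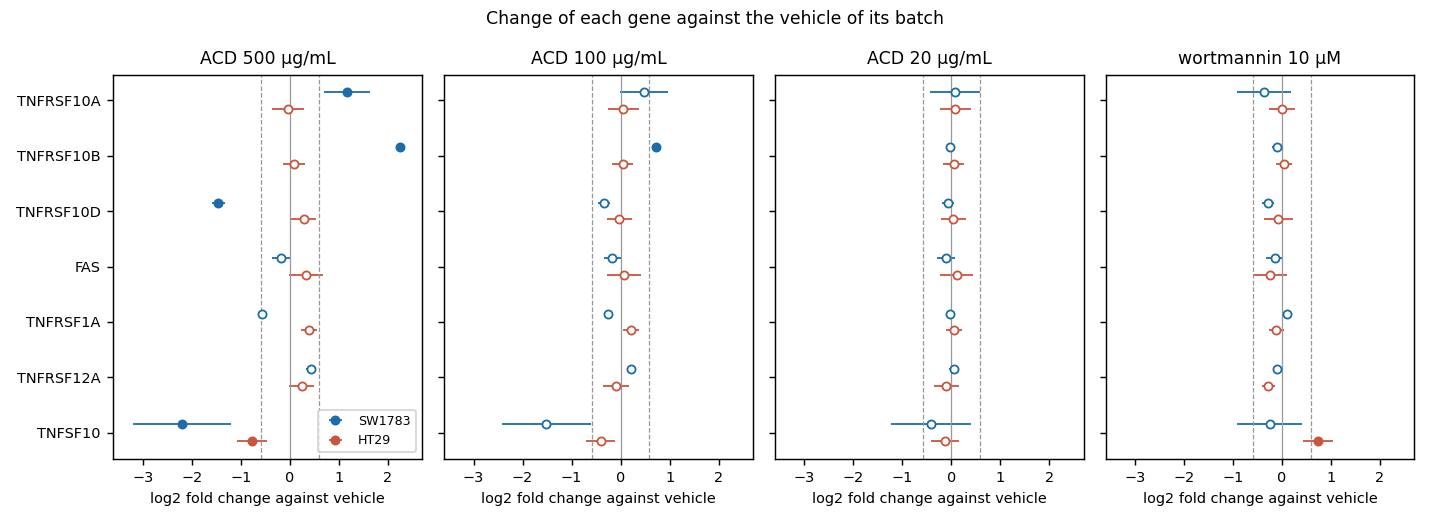
Log2 fold change of each gene against the vehicle of its batch, with 95% intervals, for 3 doses of ACD and for wortmannin; blue is SW1783 and red is HT29, filled points are called and dashed lines mark the 1.5-fold threshold. At the high dose 4 genes were called in SW1783 and 1 in HT29, and under wortmannin TNFSF10 in HT29 (0.74) was called.

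Counted over the 7 genes, 1 was called at medium in SW1783 (TNFRSF10B, beside 3.81% of genes tested) and 3 between high and medium (9.86%). At low in SW1783 none was called (0.103% of genes), none had an unadjusted p under 0.05, and edgeR called none. Under wortmannin DESeq2 and edgeR called none in SW1783 (2.71%), where 3 had an unadjusted p under 0.05. In HT29, 1 was called at high (3.10%) and 1 under wortmannin (2.74%). In HT29 none was called at medium (0.793%; 2 at an unadjusted p under 0.05), at low (0.282%; 0) or between high and medium (0.7%; 4), and edgeR called none in these. In the interaction, 5 were called at high (15.2% of genes), 2 at medium (3.34%), 0 at low (0.267%, by DESeq2 and edgeR, with 0 at an unadjusted p under 0.05) and 1 under wortmannin (3.42%). The libraries of a group lay wholly above or below those of its vehicle for every member at high and at medium in SW1783 (3 above and 4 below at each), as they did for 59.3% and 50.2% of the genes tested. In SW1783 this held for 2 of the 7 at low and 4 under wortmannin, beside 26.1% and 54.2% of genes. In HT29 it held for 4 of the 7 at high, 2 at medium, 1 at low and 4 under wortmannin, beside 22.4, 28.1, 21.3 and 44.9% of genes. Without replicate 2 of the high group of HT29 it held for 6 of the 7 at high, beside 50.7% of genes, and 1 of the 7 was called, beside 4.04%.

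Other receptors of the TNF receptor family were considered next, 23 genes in all. At high in SW1783 3 were called higher and 2 lower among 17 with an adjusted p, beside 17.7% of all genes tested (8.41% higher and 9.28% lower). NGFR, the low-affinity neurotrophin receptor that also carries a death domain, rose by 4.81 ± 0.20 on the log2 scale (adjusted p = 1.59e-121) and by 1.86 ± 0.22 at medium. TNFRSF19, an orphan receptor, fell by 1.66 ± 0.06 at high (adjusted p = 9.52e-195) and by 0.74 ± 0.05 at medium. The other called receptors had mean counts under 100, EDA2R and TNFRSF9 higher and TNFRSF11B, a secreted decoy for TRAIL and RANK ligand, lower by -0.87 ± 0.26. The remaining TRAIL decoy, TNFRSF10C, had a mean count of 14.2 in SW1783 and a change of -0.13 ± 0.52. In HT29, 8 had an adjusted p at high and none was called by DESeq2 or edgeR (7 at an unadjusted p under 0.05), with a median log2 fold change of 0.21. In that comparison 3.10% of all genes tested were called. TNFRSF21 and TNFRSF25, both with a death domain, had changes of 0.43 ± 0.12 (adjusted p = 0.00703) and 0.53 ± 0.15 (adjusted p = 0.00691), under the fold threshold. TNFRSF14 at 0.31 ± 0.09 (adjusted p = 0.00963) and TNFRSF11A at -0.46 ± 0.15 (adjusted p = 0.0312) were also under it.

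Of 17 other ligands of the TNF family, 11 had an adjusted p at high in SW1783. Of these 1 was called higher and 1 lower, beside 17.7% of all genes tested. TNFSF15 fell by 1.71 ± 0.15 (adjusted p = 2.55e-30) and by 0.78 ± 0.13 at medium, and TNFSF18 was called higher at a mean count of 4.73. In HT29 at most 5 of the ligands had an adjusted p, and none was called under any treatment by DESeq2 or edgeR (0 to 1 at an unadjusted p under 0.05).

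Of 15 genes that carry the death signal inside the cell, 1 was called higher and 1 lower at high in SW1783 among 14 tested, beside 17.7% of all genes. XIAP, an inhibitor of caspases, rose by 0.76 ± 0.04 (adjusted p = 2.49e-85), and APAF1, the scaffold of the apoptosome, fell by 0.72 ± 0.11 (adjusted p = 1.28e-10). The adaptor FADD had a change of -0.24 ± 0.11 (adjusted p = 0.0573), caspase-8 (CASP8) of -0.16 ± 0.12 (adjusted p = 0.275) and its inhibitor CFLAR of 0.26 ± 0.10 (adjusted p = 0.0272, under the fold threshold). None of the 15 was called by DESeq2 or edgeR at medium, low or wortmannin in SW1783 (4, 1 and 4 at an unadjusted p under 0.05) or at high, medium, low or wortmannin in HT29 (2, 1, 2 and 3).

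Of 21 genes of the TNF receptor signalling complex, 6 were called higher and none lower at high in SW1783, with a median log2 fold change of 0.32 beside -0.01 for all genes tested. In that comparison 8.41% of all genes tested were called higher and 9.28% lower. The largest were BIRC3, which encodes the ubiquitin ligase cIAP2, at 1.36 ± 0.10 (adjusted p = 1.95e-38), the adaptor TRAF1 at 1.25 ± 0.12 and TNFAIP3, the NF-kB inhibitor A20, at 1.09 ± 0.09. BIRC3 also rose in HT29, by 1.09 ± 0.14 at high (adjusted p = 6.96e-12) and by 1.06 ± 0.14 at medium (adjusted p = 9.67e-11), and fell with wortmannin in SW1783 by 0.92 ± 0.15 (adjusted p = 4.38e-09).

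Of 19 other p53 targets, 18 had an adjusted p at high in SW1783, with a median of 0.18. Of these 3 were called higher and 3 lower, beside 17.7% of all genes tested. PLK3, a stress kinase, rose by 1.64 ± 0.10 and CDKN1A, the cell cycle inhibitor p21, by 1.44 ± 0.07. BBC3 had the largest rise, by 3.55 ± 0.42 at a mean count of 29.9. ZMAT3, POLH and TP53I3 fell by 0.71 ± 0.05, 0.70 ± 0.08 and 0.62 ± 0.11. In HT29 at high CDKN1A rose by 0.59 ± 0.11, while BTG2 and SESN1 fell by 1.01 ± 0.09 and 0.73 ± 0.12, and edgeR called 2 genes of the list. DESeq2 called 1 higher and 2 lower there, beside 3.10% of all genes tested. The direction of the list was therefore mixed in both lines.

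The list named ATF4 and CHOP axis held 12 genes, most of them of the integrated stress response. It also held ERN1 and HSPA5, which belong to the wider response to endoplasmic reticulum stress. All 12 were called higher at high and at medium in SW1783, with medians of 2.80 and 1.64, and 8 of 12 at high in HT29, with a median of 0.92. Of all genes tested, 17.7, 3.81 and 3.10% were called in these comparisons, in the same order. DDIT3, which encodes CHOP, rose by 3.91 ± 0.06 on the log2 scale at high in SW1783 and by 0.76 ± 0.15 in HT29. ATF3 rose by 4.73 ± 0.16 and TRIB3 by 4.31 ± 0.06 at high in SW1783, and CHAC1 by 2.99 ± 0.17 and ASNS by 2.08 ± 0.14 at high in HT29. At high in HT29, CHAC1, ASNS and DDIT4 (1.83 ± 0.08) were called and TNFRSF10B was not. A link between these genes was not tested. Under wortmannin ASNS was called lower in HT29 (-0.76), and in SW1783 none was called by DESeq2 and 1 by edgeR (5 at an unadjusted p under 0.05).

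Of 20 interferon-stimulated genes, all 20 were called higher with wortmannin in HT29, with a median log2 fold change of 1.75 beside -0.01 for all genes tested, and TNFSF10 rose in the same libraries. In that comparison 2.74% of all genes tested were called. IFI44L rose by 3.74 ± 0.22, XAF1 by 3.11 ± 0.25 and MX2 by 3.08 ± 0.22. With wortmannin in SW1783, where TNFSF10 did not pass, none of the 18 with an adjusted p was called by DESeq2 or edgeR (6 at an unadjusted p under 0.05). At high in HT29, where TNFSF10 fell, none was called by either tool (2 at an unadjusted p under 0.05) and the median was -0.23. At medium and low in HT29, where TNFSF10 stood at -0.41 and -0.13 against vehicle, the medians of the list were 0.26 and 0.35, with none called by either tool and 3 and 7 at an unadjusted p under 0.05. At high in SW1783, where TNFSF10 was called lower, 5 were called higher, among them IFIT2 at 1.50 ± 0.13, and 1 lower, beside 17.7% of all genes tested. A link between TNFSF10 and these genes was not tested.

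Without replicate 2 of the high group of HT29, the counts called in that group were 2 in place of 1 for the signalling complex, 4 in place of 3 for the p53 targets and 7 in place of 8 for the ATF4 and CHOP axis. Of all genes tested, 4.04% were called without that replicate and 3.10% with it.

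**Figure D4:**
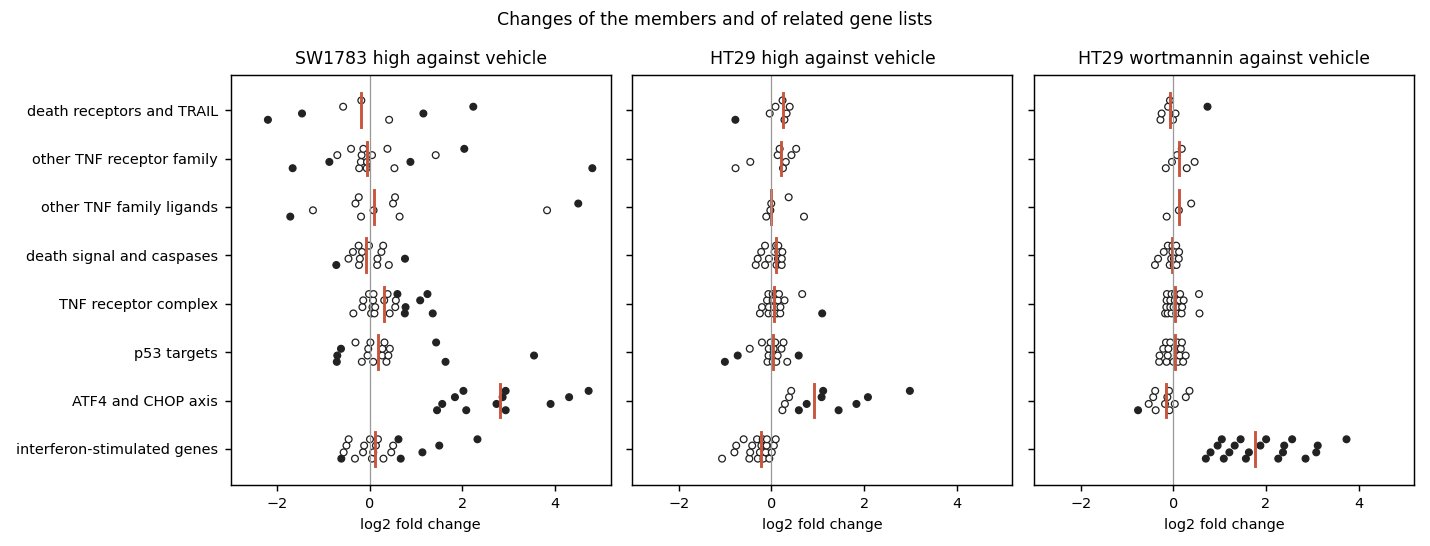
Log2 fold changes of the death receptor and TRAIL genes and of 7 related gene lists in 3 comparisons; each point is a gene with an adjusted p, filled when called, and the red bar is the median of the list. The ATF4 and CHOP axis stands to the right in SW1783 at high (median 2.80) and, less far, in HT29 at high (0.92), and the interferon-stimulated genes stand to the right with wortmannin in HT29 (1.75).

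As a description, the genes most like each member in the 12 libraries of batch B were sought by Pearson's r of log2 normalized counts, among 11417 genes in SW1783 and 10821 in HT29 with a mean of 100 or more. In SW1783, TNFRSF10B was most like HSPA13, UPP1 and IBTK (r = 0.999 each), and TNFRSF10D was most like ENC1 (1.00), COL8A1 and COL1A2 (0.999 each). TNFSF10 was most like PRRX1 (0.987), FADS2 (0.979) and WWTR1 (0.978), and genes most like TNFRSF10A included KCMF1 (0.983) and MED8 (0.981). TNFRSF1A was most like IDH2 (0.996), SNAI1 and CDKN2C (0.995 or more), TNFRSF12A most like KLF16 (0.971), and FAS most like RRAGB (0.919). In HT29, TNFSF10 was most like PTPRO (0.963) and TNFRSF10B most like ARID3B (0.974). Among the members in SW1783, TNFRSF10B and TNFRSF10D had r = -0.989 and TNFRSF10B and TNFRSF10A r = 0.954. The points are 3 libraries at each of 4 doses and share the dose, so that many genes that follow the dose reach such values.

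Some members overlap other genes, and the strand setting of the counting was not stated. TNFRSF10B overlaps RHOBTB2 on the opposite strand, which fell by 0.69 ± 0.07 at high in SW1783 while TNFRSF10B rose. FAS overlaps STAMBPL1 on the same strand, with a change of 0.01 ± 0.13, and ACTA2 on the opposite strand, which fell by 0.94 ± 0.06. TNFRSF10A overlaps the antisense transcripts TNFRSF10A-AS1 and TNFRSF10A-DT, with mean counts of 3.69 and 4.24 in SW1783 and of 42.7 and 89.0 in HT29, the line with more TNFRSF10A, and TNFRSF12A overlaps CLDN6, with a mean count of 1.46. The 3 TRAIL receptors on chromosome 8 are related in sequence, and how RSEM divided reads that fit several of them was not given in the sources used here.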

How the data were processed

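Values came from the count table that the authors deposited, which holds RSEM expected counts per gene and library without normalization. The authors sequenced directional mRNA libraries, trimmed reads with Trim Galore 0.6.5 and quantified genes with STAR 2.7.3a and RSEM 1.3.3, after FastQC 0.11.9 (versions per the submitters' processing notes, the paper's methods differ for STAR and Trim Galore). The build is GRCh38, which the methods also write as hg19. Positions here are those of GENCODE v44.

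Expected counts were rounded, since 8.84% were not whole. The Wald test of DESeq2 1.42.0 (R 4.3.3), as in the study's methods, was fitted per line and batch on all genes, with two-sided p adjusted by Benjamini-Hochberg, and interactions on both lines of a batch. edgeR 4.0.16 was the alternative test. Other alternatives were TMM scaling, a filter of 10 counts in 3 libraries, no fold threshold, a replicate block, the 6 libraries compared, and leaving out each replicate. Plotted levels are normalized counts from size factors over 36 libraries. The fits were tested on simulated data. Members and lists were chosen with earlier results of these data known. In each list up to 3 called genes per direction with a mean count of 100 or more were named by size of change, and others were named after their values were seen. Intervals cover 95%. Some genes most like a member are not reported here. The numbers paired the vehicles of the 2 batches (correlations of same-numbered deviations 0.232 to 0.294 in SW1783 and 0.420 to 0.771 in HT29), so the blocked values are given for that comparison.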

Additional observations from a re-analysis of the deposited data

Results flagged for a closer look

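A total of 8 results for 5 of the 7 genes differed between the cell lines by a test of the difference itself, SW1783 minus HT29 on the log2 scale. At the high dose of ACD the differences were 2.10 for TNFRSF10B, 1.15 for TNFRSF10A, -1.78 for TNFRSF10D, -1.01 for TNFRSF1A and -1.46 for TNFSF10. At the medium dose they were 0.66 for TNFRSF10B and -1.12 for TNFSF10, and with wortmannin -1.0 for TNFSF10. Of all genes tested, 15.2, 3.34 and 3.42% were called for such a difference at high, at medium and with wortmannin. The call of TNFSF10 at medium was lost on leaving out any of several single libraries, as given above. Its call with wortmannin was lost with the replicate number as a block. Cell line, culture medium and CO2 cannot be told apart in these differences. Groups of 3 are too small for a test of single outlying libraries.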

How the results depend on the processing

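The number of genes called among the 7 kept within 1.5 times of its value in 87 of 96 alternatives other than leaving out a replicate. At medium in SW1783 it was 2 in place of 1 with edgeR, with TMM scaling and with the low-count filter, by way of TNFSF10, which these settings tested, and 4 without the fold threshold. Without that threshold it was also 3 for wortmannin in SW1783, 2 for high and 2 for wortmannin in HT29, and 5 between high and medium in SW1783, where fewer conditions were asked of a gene. The replicate block took the interaction under wortmannin from 1 to 0, and changed no other count past 1.5 times. Within a batch the replicate numbers did not pair the samples by this check (correlations of same-numbered deviations -0.118 to 0.221 in batch B of SW1783 and -0.461 to 0.326 in HT29, 0.0115 to 0.0532 and -0.0545 to 0.154 in batch A). Leaving out single replicates gave 1 to 2 calls at medium in SW1783 and 1 to 2 for the interaction at medium. The sign of TNFRSF10A in the interaction at low, near 0, turned to 0.0132 with edgeR and 0.0112 with TMM scaling (-0.165 to 0.103 without single replicates). Other signs that turned on leaving out a replicate belonged to changes that were not called. For TNFRSF10A the ranges were -0.0643 to 0.205 at low in SW1783, and in HT29 -0.141 to 0.125 at high, -0.0355 to 0.123 at medium, -0.0121 to 0.147 at low, -0.0807 to 0.0406 with wortmannin, -0.196 to 0.0764 for high against medium and -0.0568 to 0.110 between vehicles. For TNFRSF10B in HT29 they were -0.0106 to 0.206 at high, -0.0512 to 0.169 for high against medium and -0.0203 to 0.0490 between vehicles. For TNFRSF10D in HT29 they were -0.0898 to 0.0188 at medium, -0.0426 to 0.121 at low and -0.0655 to 0.0451 between vehicles. In SW1783 they were -0.0538 to 0.0159 for FAS between high and medium, and between vehicles -0.0822 to 0.00924 for FAS, -0.0300 to 0.0659 for TNFRSF12A and -0.0306 to 0.0314 for TNFRSF1A. Depth limits TNFSF10 in SW1783, where a count of 0 would allow up to 3 counts and the high group had 5 to 7, and this covers counting error only.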
